A study of Bos taurus with 6 samples.

Results

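LSM4 encodes a subunit of the ring-shaped LSm protein complexes, which bind the ends of RNAs and take part in pre-mRNA splicing and in mRNA decay. The DNA around its start was examined on bovine chromosome 7 (UMD3.1) from 4716828 to 4918889, that is, the LSM4 region drawn in the study, from 4816828 to 4818889, with 100 kb on either side. The positions were taken by coordinate alone. In this window, 753 CpGs were covered by 5 to 500 reads (CpGs 5-500) in at least 1 library, and 426 in all 6 libraries, out of 1580644 in the genome.

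DNA methylation was measured by reduced representation bisulfite sequencing (RRBS), in which MspI cuts DNA at CCGG sites and the share of reads keeping a cytosine after bisulfite treatment gives the methylation of a CpG. There were 2 libraries of sperm, from commercial straws of Holstein bulls, and 2 of monocytes purified from the blood of Holstein cows. Another 2 were of fibroblasts grown in culture from the ear skin of Holstein animals, which the study describes as adult heifers. Each library came from a different animal, and the labels give no treatment and no age. Sperm came from bulls and the somatic cells from females, so that germline and sex cannot be told apart here, and neither can fibroblasts and culture. RRBS measures no marker of cell type, so that the identity of the cells rests on their labels. Summed over CpGs, the coverage of the libraries ranged from 45884839 to 78890776 reads, and the median coverage of the 426 CpGs was between 16 and 28 reads per library. Libraries were amplified over 14 PCR cycles, or 12 for monocytes, so that PCR cycles and monocytes cannot be told apart either.

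In mammals, most CpGs of the genome are methylated, whereas the CpG-dense stretches at the start of housekeeping genes are usually free of methylation in every cell. The edge between the unmethylated stretch and the methylated DNA around it, often called a shoulder or shore, can lie at different places in different cells, and unmethylated stretches at gene starts are known to reach further in sperm than in somatic cells at a number of genes. LSM4 is such a broadly expressed gene. The study selected its region for low methylation in sperm. It reports there a stretch less methylated in sperm than in liver and fibroblasts, by immunoprecipitation of methylated DNA and arrays. By its account, the CpGs it pyrosequenced there were also low in sperm, and RRBS did not cover them. Since the region was selected, the difference between sperm and somatic cells inside it is given below as a description, without a test. The tests concern the flanks, which were not part of that choice.

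The LSM4 region held 2 runs of CpGs, with neighbours at most 290 bp apart, that differed in their pattern. The first, called the upstream block here, had 5 CpGs from 4816828 to 4817023, over 196 bp, and was low in sperm and high in both somatic cell types. The second had 32 CpGs from 4818494 to 4818916, over 423 bp, and was low in every library. It is called the gene-start block, because LSM4 starts inside it in the drawing of the study and runs from there towards higher coordinates. The files and the gene table used here give no LSM4 coordinates on UMD3.1, so that exons and introns are not given.

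In the upstream block, the mean methylation was 4.44% in both sperm libraries. Monocytes were at 92.5% and 100%, and fibroblasts at 98.5% and 86.7%. The 2 sperm libraries and the 4 somatic libraries thus did not overlap, and the lowest somatic library stood far above sperm. As means of the 2 libraries, the block was at 4.44 ± 0% in sperm (SD, n = 2), 96.2 ± 5.30% in monocytes and 92.6 ± 8.34% in fibroblasts. The difference was 91.8 points between monocytes and sperm and 88.1 points between fibroblasts and sperm.

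The 5 CpGs of the upstream block were at 4816828, 4816871, 4816970, 4816988 and 4817023. The first 4 of them had no methylated read in either sperm library. The last one, which lies on the side of the gene, had 2 methylated reads of 9 in each sperm library, which is 22.2%. All the methylated sperm reads of the 5 CpGs were therefore at the edge nearest to the gap. In the somatic libraries, no CpG of the block fell below 66.7%, the value of 4816970 in fibroblast replicate 2, and 3 of the 5 CpGs were at 100% in both monocyte libraries. A sixth position, 4816949, was listed in 3 libraries alone. It was at 12.5% in sperm replicate 1, 44.4% in sperm replicate 2 and 100% in monocyte replicate 1, with 8 or 9 reads each, so that sperm was not free of methylation at every position of the block.

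The depth behind the upstream block was low. Each of the 5 CpGs had 9 reads in either sperm library, 8 and 7 reads in the monocyte libraries, and 13 and 6 reads in the fibroblast libraries. Within a library, the number of reads was the same at all 5 CpGs, which were therefore not taken as independent measurements. At 4816828, 0 of 18 sperm reads were methylated, which allows a share of up to 16.7% (3 reads), against 15 of 15 monocyte reads (95% Wilson interval 79.6 to 100%) and 18 of 19 fibroblast reads (75.4 to 99.1%). At 4817023, 4 of 18 sperm reads were methylated (9.0 to 45.2%), against 14 of 15 in monocytes (70.2 to 98.8%) and 19 of 19 in fibroblasts (83.2 to 100%). The reads of the 2 libraries of a cell type were summed for these intervals, which are given as a description of the selected block. They cover counting error only, without the variation between animals, and PCR copies are not told apart.

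**Figure D1:**
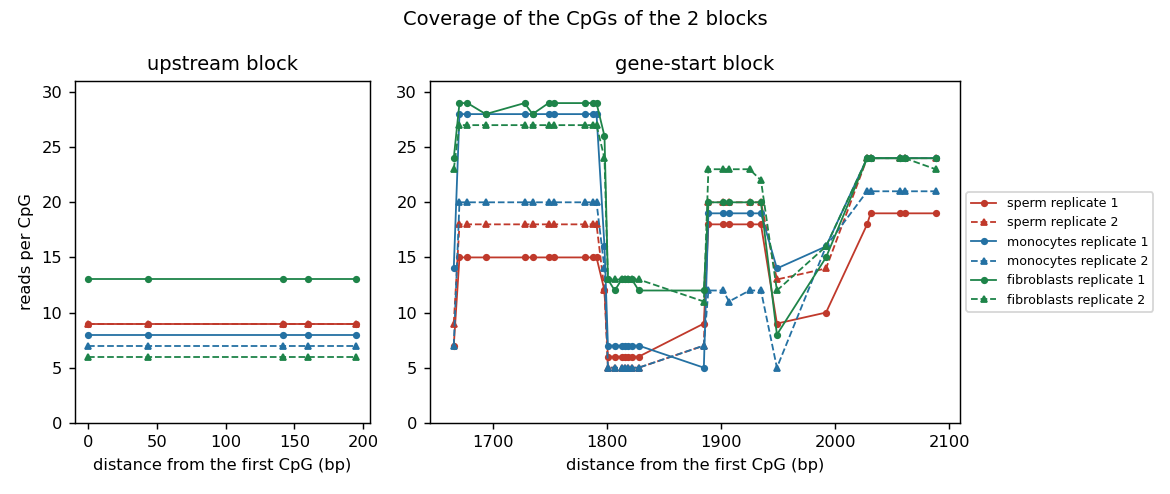
Number of reads (vertical axis) at each CpG of the upstream block (left) and of the gene-start block (right), against the distance from the first CpG of the LSM4 region in bp. Each line is a library, coloured by cell type. In the upstream block the lines are flat, between 6 and 13 reads, and in the gene-start block they run in plateaus between 5 and 29 reads that fall at the same CpGs in all 6 libraries.

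The gene-start block was free of methylation, or nearly so, in every cell type. Both monocyte libraries were at 0%, while the sperm libraries had a mean of 0.720% and 0.174% and those of fibroblasts 0.694% and 0.408%. Sperm and fibroblasts overlapped, at 0.447 ± 0.386% and 0.551 ± 0.202% (SD, n = 2). Of its 32 CpGs, 23 had no methylated read in any library. Of the other 9, each had methylated reads in a single library, 4 of them in sperm and 5 in fibroblasts. The highest value was 13.0%, at 4818494 in fibroblast replicate 2, which is the CpG of the block nearest to the gap. In monocytes, 0 of 609 and 0 of 448 read-by-CpG counts were methylated. Were these counts independent, this would allow a share of up to 0.493% and 0.670%. Since 1 read carries several CpGs, the share allowed is higher.

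The border between the blocks was thus a fall of 96.2 ± 5.30 points in monocytes and of 92.0 ± 8.14 points in fibroblasts, from the upstream block to the gene-start block. In sperm, methylation fell by 4.0 points, with an SD of 0.386. The place of the border inside the gap could not be seen. From 4817023 to 4818494, over 1471 bp, no CpG position was listed in any library at a coverage of 1 read or more. No position between 4818494 and 4819229 was above 13.0% in any library, so that in somatic cells the change from methylated to unmethylated DNA took place within those 1471 bp.

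**Figure D2:**
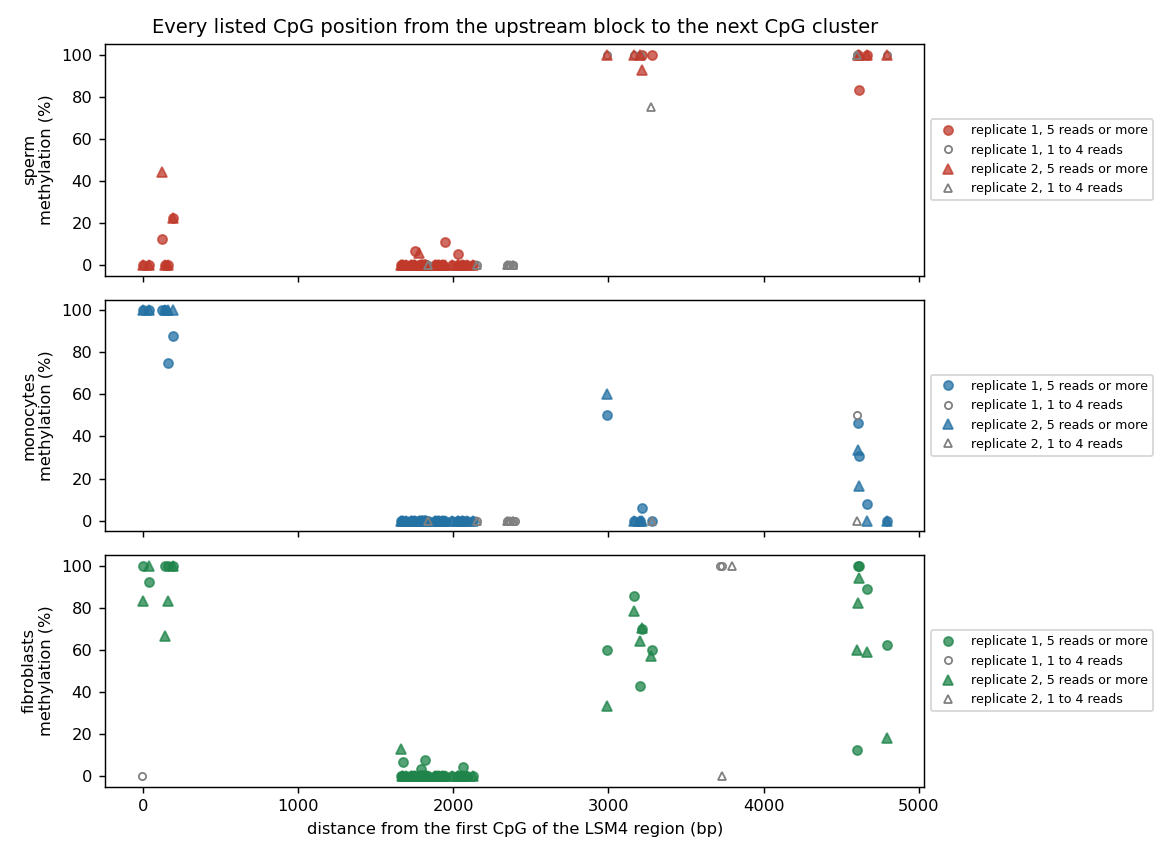
Methylation (%, vertical axis) of every listed position from the upstream block to just beyond the next CpG cluster, against the distance from the first CpG of the LSM4 region in bp, with sperm at the top, monocytes in the middle and fibroblasts at the bottom. Circles and triangles are the 2 replicates, and open grey symbols have 1 to 4 reads. To the left of the empty gap of 1471 bp, sperm is low and the somatic cells are high. To the right of the gene-start block, sperm is high, monocytes are lowest at most positions and fibroblasts mostly lie between.

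On the other side of the gene-start block, towards the gene, the cell types parted in another order. The next 9 positions, up to 4819229, had no methylated read in any library that covered them, but 7 of the 9 had at most 3 reads in any library. The first methylated reads appeared 588 bp further, at 4819817. There, both sperm libraries were at 100% (1 and 8 reads), monocytes at 50.0% and 60.0%, and fibroblasts at 60.0% and 33.3%. At 4820042, a position described because of its values and the only one of the 2521 bp between the gene-start block and the next cluster that was covered by 5 to 500 reads in all 6 libraries, methylation was 100% and 92.9% in sperm, against 6.25% and 0% in monocytes and, in fibroblasts, 70.0% and 70.4%. Monocytes lay below both other cell types, and fibroblasts lay between. In summed reads of the 2 libraries, this was 24 of 25 sperm reads (95% Wilson interval 80.5 to 99.3%), 1 of 25 monocyte reads (0.710 to 19.5%) and 26 of 37 fibroblast reads (54.2 to 82.5%). Positions 4819991 and 4820034 had the same order, with 100% in both sperm libraries and 0% in both monocyte libraries, although sperm replicate 1 had 2 reads there.

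The cluster next to the gene-start block, with 3 CpGs from 4821437 to 4821495, was at 94.4% and 100% in sperm. It was at 28.2% and 16.7% in monocytes, and at 96.3% and 78.4% in fibroblasts. Both monocyte libraries lay below all the others, while sperm and fibroblasts overlapped. Monocytes had a mean of 22.4 ± 8.16%, against 97.2 ± 3.93% for sperm and 87.4 ± 12.6% for fibroblasts. The difference of -74.8 points between monocytes and sperm was called (adjusted p = 0.00329, limma, on the arcsine square root scale), as was that of -64.9 points between monocytes and fibroblasts (adjusted p = 0.00861). The difference of -9.86 points between fibroblasts and sperm was not (adjusted p = 0.186). The call between monocytes and fibroblasts was lost without monocyte replicate 2 (adjusted p = 0.0559) and without fibroblast replicate 1 (adjusted p = 0.0522). The median coverage of the 3 CpGs was between 6 and 17 reads per library. As in the upstream block, the 3 CpGs had the same number of reads within each library.

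Further into the flank, the cluster from 4824504 to 4824820, with 5 CpGs, was above 50% in all 6 libraries. It was at 100% and 97.5% in sperm, against 78.3% and 73.3% in monocytes and, in fibroblasts, 78.0% and 83.3%. Sperm was the highest without overlap, and the difference was called for monocytes (-22.9 points, adjusted p = 0.00504) and for fibroblasts (-18.1 points, adjusted p = 0.00585). Sperm was thus the lowest cell type before the gene-start block, in a run of the selected region, and the highest in this cluster after it.

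On the far side of the upstream block, the nearest cluster lay 17903 bp away. This interval held 25 listed positions. Of these, 21 lay between 4798931 and 4799060, next to that cluster, and were at 0% in every library with 3 to 9 reads. The other 4 had at most 3 reads in any library, so that the DNA between 4799060 and 4816828 was not seen in practice, and the outer edge of the sperm-low block could not be placed. The cluster itself, with 21 CpGs from 4798753 to 4798925, was low in all libraries. It was at 1.07% and 1.99% in sperm, against 0.397% and 0% in monocytes and, in fibroblasts, 0.353% and 0.608%. Sperm lay above the somatic libraries, but the difference was not called for monocytes (adjusted p = 0.110) or for fibroblasts (adjusted p = 0.318). At a minimum coverage of 10 reads, it was called for monocytes (-1.69 points, adjusted p = 0.0346, limma).

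In the gene table of another bovine assembly (ARS-UCD2.0), the protein-coding genes next to LSM4 are PGPEP1, which encodes a peptidase that removes pyroglutamate from the ends of peptides, and JUND, which encodes a transcription factor of the AP-1 family. GDF15, a stress-responsive cytokine of the TGF-beta superfamily, and IQCN, an IQ-motif gene, follow on either side. Since the assemblies differ, none of these genes was assigned to a cluster of the window.

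Over the whole window, methylation was lower than in the genome at large, and fibroblasts had the lowest mean in both. For the 426 CpGs, the sperm libraries had a mean of 35.3% and 35.8%, those of monocytes 36.2% and 36.6%, and those of fibroblasts 29.9% and 29.1%. Fibroblasts (29.5 ± 0.537%) lay below sperm (35.5 ± 0.347%) and monocytes (36.4 ± 0.271%). The 426 CpGs include the 5 of the selected upstream block, which was at 4.44% in sperm and 96.2% in monocytes. On each library's own CpGs 5-500 of the window, sperm (37.0% and 41.0%) and monocytes (39.9% and 41.1%) overlapped. Nothing is therefore read from the order of sperm and monocytes in the window. Over all CpGs 5-500 shared by the 6 libraries, fibroblasts were at 46.4%, sperm at 49.0% and monocytes at 54.0%. CpGs under 20% made up 61.3% of the window in sperm, where the genome had 47.6%. In monocytes the share was 59.3%, against 39.3%, and in fibroblasts 61.5%, against 40.9%. Fibroblasts had more CpGs from 20 to 80% in the window, with 19.7 ± 0.332%, than sperm (6.92 ± 0.166%) or monocytes (7.28 ± 0.332%). These levels were not tested, since the smallest exact permutation p for 2 libraries against 2 is 0.333, two-sided.

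**Figure D3:**
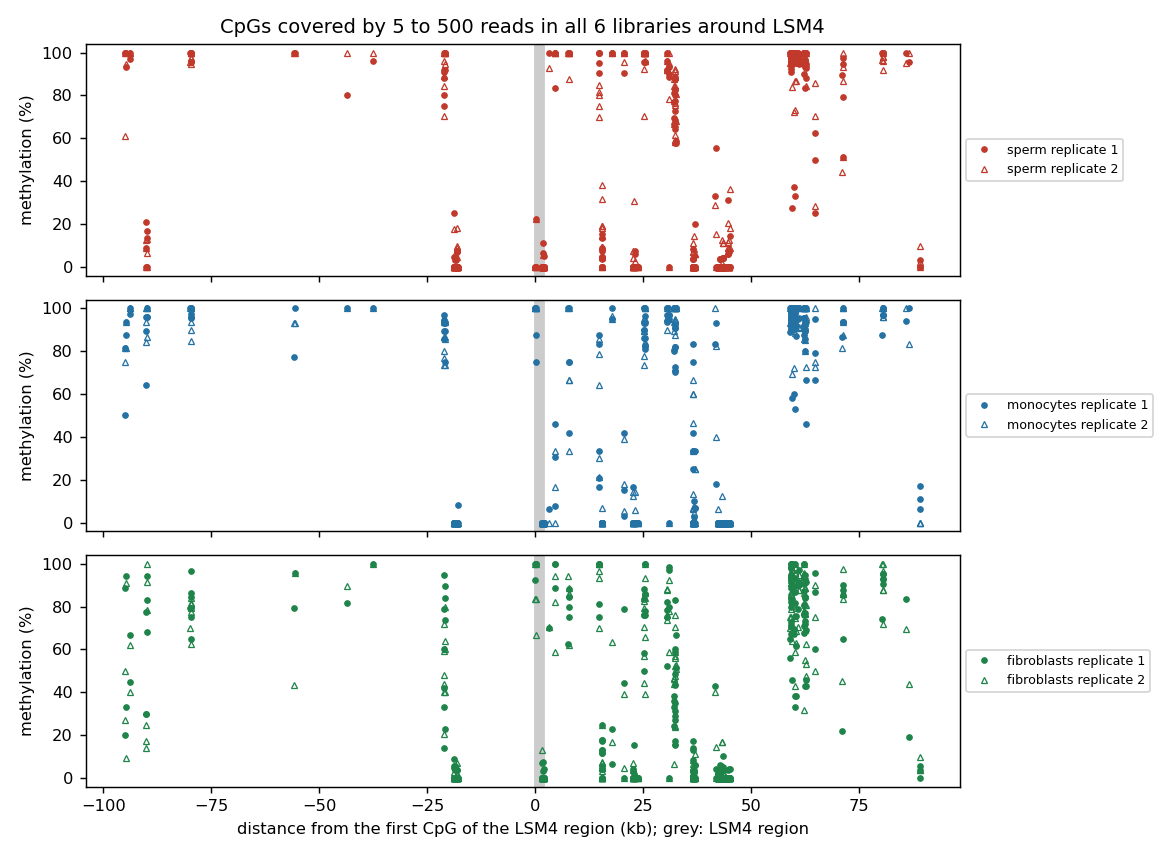
Methylation (%, vertical axis) of the 426 CpGs covered by 5 to 500 reads in all 6 libraries, against the distance from the first CpG of the LSM4 region in kb, with 1 panel per cell type and 1 symbol per replicate. The grey band is the LSM4 region. At its left edge the sperm panel is low where both other panels are high, and the dense groups of CpGs near 0% recur in all 3 panels.

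At most CpGs of the window, the CpG test called no difference between cell types. The CpG test compared the reads of the 2 libraries of each cell type, summed, by logistic regression, with a Benjamini-Hochberg adjusted p below 0.01 over the genome and a difference of at least 25 points. It holds no variation between animals, and between the 2 replicates of a cell type it called 2 CpGs of the window in sperm, 0 in monocytes and 4 in fibroblasts, where 0.309%, 0.173% and 0.693% of the CpGs of the genome were called. Between monocytes and sperm, 38 of the 426 CpGs were called, or 8.92%, against 18.8% in the genome. The 5 CpGs of the upstream block, which lie in the region selected for low methylation in sperm, are among them, and also among those of fibroblasts. Between fibroblasts and sperm, 57 were called, or 13.4%, against 28.3%, and between monocytes and fibroblasts 56, or 13.1%, against 17%. In 343 CpGs, or 80.5%, no comparison was called, against 66.1% in the genome. A CpG without a call can still differ by less than 25 points, or have too few reads for a call.

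By pattern, 9 CpGs were low only in sperm (2.11%, against 8.98% of the genome). Of the 9, 5 made up the upstream block, which lies in the selected region. The cluster from 4726664 held 3 and that from 4881626 held 1. Neighbouring CpGs are not independent, and the difference from the genome was not tested, so that nothing is read from this count. There were 4 CpGs high only in sperm (0.939%, against 2.43%), and 3 of them formed the cluster at 4837362 to 4837417. There were 8 CpGs low only in monocytes (1.88%, against 1.46%). All of these lay on the gene side, 5 of them from 4820042 to 4824759, between 1126 and 5843 bp from the gene-start block, and 3 further on, in the cluster from 4831646. That cluster was partly methylated in monocytes, at 48.3% and 56.0%. There were 11 CpGs high only in monocytes (2.58%, against 1.82%) and 34 low only in fibroblasts (7.98%, against 9.23%). None was called high only in fibroblasts, against 0.953% in the genome, 1 CpG (0.235%) was called in all 3 comparisons, against 2.63%, and 16 (3.76%) in 1 comparison, against 6.42%.

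The 34 CpGs low only in fibroblasts were partly methylated rather than unmethylated. The median of their means was 42.4% in fibroblasts, against 94.9% in sperm and 92.0% in monocytes. Both fibroblast libraries lay between 20 and 80% at 26 of them, and both under 20% at 1. These CpGs were spread over 9 clusters and 5 CpGs outside clusters, and the cluster from 4849077 to 4849460 held 11 of them. In 9 clusters of the window that exceeded 80% in both sperm and both monocyte libraries, the fibroblast medians were 79.8% and 78.1%, and both fibroblast libraries were below the other 4 in all 9 clusters. In the genome, the medians were 81.9% and 82.4%, and both fibroblast libraries were below the other 4 in 77.3% of 69500 such clusters. These clusters were picked for high sperm and monocytes, with fibroblasts left free, and this choice favours fibroblasts below the other 4. Nothing is therefore read from that order, and the difference between the window and the genome was not tested.

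The tests of whole clusters compared libraries, not reads, and so hold the variation between animals. The window had 32 clusters of at least 3 CpGs, with 415 of the 426 CpGs. The counts of clusters that differed from sperm include the upstream block, which lies in the selected region, so that its call is no finding. Between monocytes and sperm, 13 clusters were called (40.6%, against 36.5% of the clusters of the genome), 7 with monocytes higher (21.9%, against 17.2%) and 6 with monocytes lower (18.8%, against 19.3%). Between fibroblasts and sperm, 17 were called (53.1%, against 67.8%), 3 with fibroblasts higher (9.38%, against 17.1%) and 14 with fibroblasts lower (43.8%, against 50.7%). Between monocytes and fibroblasts, 13 were called (40.6%, against 48.1%), 11 with monocytes higher (34.4%, against 41.3%) and 2 with monocytes lower (6.25%, against 6.8%). One of these 2 was the cluster next to the gene-start block, described above, and the other that from 4831646 to 4831752.

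**Figure D4:**
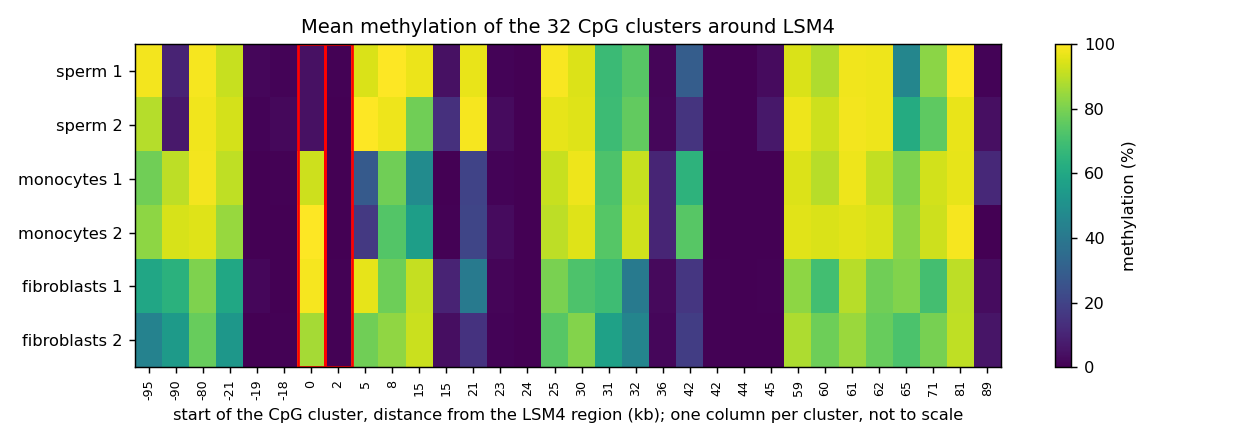
Mean methylation (%, colour) of the 32 CpG clusters of the window, in columns from lower to higher coordinates, in each of the 6 libraries, in rows. The red frames mark the upstream block and the gene-start block. The upstream block is dark in the 2 sperm rows alone, and the column after the gene-start block is dark in the 2 monocyte rows alone.

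Sperm was called lower than both somatic cell types in 3 clusters of the window (9.38%, against 14.3% in the genome). One was the upstream block, which lies in the region selected for low methylation in sperm, so that nothing is read from the count. The second lay near the outer end of the window, with 6 CpGs from 4726664 to 4726958. It was at 10.0% and 6.76% in sperm, against 90.2% and 94.0% in monocytes and, in fibroblasts, 63.8% and 54.4%. No cell type overlapped another, and the difference was 83.7 points between monocytes and sperm (adjusted p = 0.000138), 50.7 points between fibroblasts and sperm (adjusted p = 0.000556) and 33.0 points between monocytes and fibroblasts (adjusted p = 0.00550). Unlike at the upstream block, fibroblasts were thus intermediate there. The third, with 3 CpGs from 4881626 to 4881735, was at 45.8% and 61.6% in sperm, against 80.1% and 82.6% in monocytes and, in fibroblasts, 80.9% and 71.7%. Its differences of 27.6 points (adjusted p = 0.0301) and 22.5 points (adjusted p = 0.0448) were lost in 5 and 6 of 11 alternatives, among them the percent scale (adjusted p = 0.0567 and 0.0618) and the replicate block (adjusted p = 0.0570 and 0.0736). Without sperm replicate 1 they were 19.7 and 14.6 points (adjusted p = 0.123 and 0.186).

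Sperm was called higher than both somatic cell types in 3 clusters (9.38%, against 17.5%). One was the cluster from 4824504, described above. The cluster with 3 CpGs from 4837362 to 4837417 was at 96.8% and 98.6% in sperm, against 20.2% and 20.9% in monocytes and, in fibroblasts, 41.2% and 14.6%. Sperm was higher without overlap, and the difference from sperm was -77.1 points in monocytes (adjusted p = 0.00106) and -69.8 points in fibroblasts (adjusted p = 0.000990). The third, with 21 CpGs from 4861591 to 4861935, was low everywhere, at 3.1% and 6.44% in sperm, 0% in both monocyte libraries, and 0.597% and 0% in fibroblasts. Its differences from sperm, -4.77 points in monocytes and -4.47 points in fibroblasts, were called (adjusted p = 0.0184 and 0.0192), but were lost in 4 and 3 of 12 alternatives, among them the percent scale (adjusted p = 0.0985 and 0.0606). Without sperm replicate 2 they were -3.1 and -2.81 points (adjusted p = 0.0717 and 0.0760).

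Clusters under 20% in all 6 libraries made up 11 of the 32 clusters (34.4%, against 15.8% of the genome), with 253 CpGs. Their library means reached 13.7% at most, and 2 of them had more CpGs than the gene-start block. The window had 8 clusters lying next to one of these 11, with a gap of at most 5000 bp. By the means, and without a test, sperm was lowest in 1 of the 8, the selected upstream block, monocytes in 3 and fibroblasts in 4. In 2 of them, the clusters from 4837362 and from 4858558, the libraries of the lowest cell type overlapped those of the next, so that their order is not known. The same count was not made over the genome. There, fibroblasts were called lower than sperm in 50.7% of all clusters, and monocytes in 19.3%. Nothing is therefore read from the split of the 8 clusters. At the cluster from 4858558 to 4858842, 302 bp before the unmethylated cluster with the most CpGs of the window, it was monocytes that were high, with 64.8% and 74.1%, against 29.6% and 14.9% in sperm and 15.7% and 18.2% in fibroblasts.

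The steps between consecutive clusters at most 2000 bp apart were compared between sperm and the mean of the somatic cell types. Of the 14 steps of the window, 5 were called (34.2% of 53599 in the genome), with the LSM4 border among the 5. The border was selected, so that its call is no finding. The step there differed by -90.1 points between the somatic cells and sperm. The step from 4879721 to 4881626 differed by 37.5 points, as methylation fell by 43.6 points in sperm, by 10.9 points in monocytes and by 1.36 points in fibroblasts (adjusted p = 0.00135).

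To set the LSM4 border beside the genome, the same kind of border was counted among the 92233 clusters of at least 5 CpGs. It was taken as a cluster under 20% in both sperm libraries and above 50% in the 4 somatic libraries, next to one under 20% in all 6 libraries, at most 2000 bp away. There were 323 such borders among 34948 consecutive pairs, 24 of them on chromosome 7, and the LSM4 border was the only one of the window. Clusters low in sperm alone numbered 5281 (5.73%), and 316 of them (5.98%) had an unmethylated neighbour, against 4.97% of the 67287 clusters of neither kind. The difference between these shares was not tested, and most sperm-low clusters had no unmethylated neighbour within 2000 bp. With 34948 pairs among 92233 clusters, many clusters had no neighbour of any kind at that distance, and the share among those with a neighbour is not given.

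Among the 323 borders, that of LSM4 had a long gap and few CpGs in its sperm-low cluster. The median gap was 641 bp, from 293 to 1997 bp, and 38 borders had a gap at least as long as the 1471 bp at LSM4. The sperm-low cluster had a median of 9 CpGs, against 5 at LSM4, which was the smallest number allowed and which 55 borders shared. With clusters of at least 3 CpGs, there were 428 borders. In somatic cells, the sperm-low cluster was at 94.4% at LSM4, against a median of 84.1%, and 35 borders were at least as high. In sperm it was at 4.44%, against a median of 3.43%. The unmethylated cluster had 32 CpGs at LSM4, against a median of 24, and 111 borders had at least as many.

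**Figure D5:**
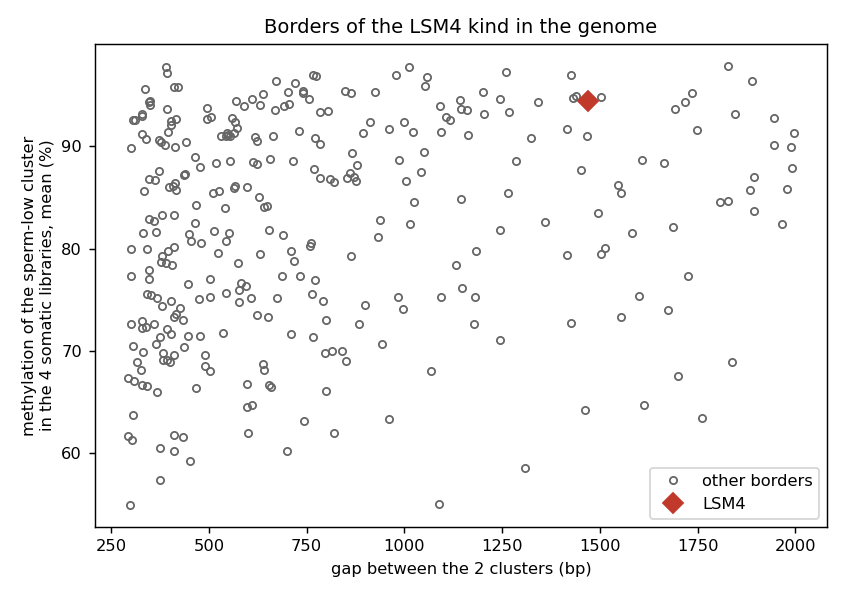
Each point is 1 of the 323 borders of the genome between a cluster low only in sperm and one low in all 6 libraries. The horizontal axis is the gap between the 2 clusters in bp, and the vertical axis the mean methylation of the sperm-low cluster in the 4 somatic libraries (%), drawn from about 50%. The red diamond is LSM4, at 1471 bp and 94.4%, among the points with long gaps and high somatic methylation.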

How the data were processed

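The RRBS libraries (2 per cell type) took their groups from the labels. Fragments of 40 to 290 bp left by MspI had been selected by the authors and read from both ends over 75 bases. The submitters' processing notes name Trim Galore 0.3.7, Bismark 0.14.3, Bowtie, methylKit and the UMD3.1 genome. The deposited tables give the coverage of each CpG as counts of reads, without a filter, and the methylation as a percent of these reads, as the authors computed it. Methylated reads were recovered as the nearest whole number to coverage times percent. PCR copies cannot be told apart in RRBS, and reads of 1 fragment carry several CpGs, so that neighbouring CpGs are not independent.

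CpGs with 5 to 500 reads in all 6 libraries were compared over the whole genome on summed counts with a logistic regression, by its likelihood ratio. Clusters were runs of at least 3 such CpGs with neighbours at most 290 bp apart. They, and the steps between clusters at most 2000 bp apart, were tested on the arcsine square root of the methylated share with limma 3.58.1 (adjusted p below 0.05). All p-values were two-sided and adjusted over the genome by the Benjamini-Hochberg method. With no separate cultures or animals besides the 2 per cell type, the spread is known poorly. The replicate numbers did not pair the libraries (correlation of deviations between -0.00325 and 0.00421), and no 2 libraries were alike (at most 4.11% of CpGs with identical counts).

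LSM4 and the genes next to it were named. The clusters described were the 2 blocks, those next to them, and those called in sperm against both somatic cell types. The region and these rules were chosen with earlier results of these data known. In many cases a CpG was listed at its C in some libraries and at its G, 1 base on, in others. Joining such positions was an alternative chosen after seeing the data, as was counting borders on autosomes alone. Other alternatives concerned the test, coverage, thresholds, scale, spacing, replicate block and leaving out each library. Tests were tested on simulated data. R 4.3.3 and Python 3.11.15 were used, the latter with pandas 2.3.3, matplotlib 3.10.9, numba 0.67.0, scipy 1.17.1 and numpy 2.4.6. Annotation of UMD3.1 was not used here.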

Additional observations from a re-analysis of the deposited data

Results flagged for a closer look

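Besides the LSM4 border, the change in methylation between consecutive clusters differed between sperm and the mean of the somatic cell types at 4 places of the window, by the limma test of that difference. With the border, 5 of the 14 steps of the window were called, against 34.2% of 53599 in the genome, so that nothing is read from their number. From the cluster at 4879060 to that at 4881626, the somatic step exceeded the sperm step by 37.5 points (adjusted p = 0.00135), with a fall of 43.6 points in sperm, 10.9 points in monocytes and 1.36 points in fibroblasts. This call held under all 10 alternatives run. From the cluster at 4858558 to that at 4859144, the difference was -21.0 points (adjusted p = 0.0464), as monocytes fell by 69.3 points, sperm by 21.8 points and fibroblasts by 16.3 points, and it was lost in 7 of 8 alternatives. From the cluster at 4840650 to that at 4842142, it was -13.8 points (adjusted p = 0.0169), with a rise of 97.6 points in sperm, 90.8 points in monocytes and 76.8 points in fibroblasts. It was lost without sperm replicate 1 (adjusted p = 0.115). From the cluster at 4861090 to that at 4861591, it was -4.62 points (adjusted p = 0.0266), between clusters that were low in every library, and it was lost in 5 of 10 alternatives.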

How the results depend on the processing

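The difference at the upstream block and the step at the LSM4 border, which are given without a test, kept their direction in every alternative that gave a value. Without 1 library, the block difference ranged from 88.1 to 95.6 points for monocytes and from 82.2 to 94.0 points for fibroblasts, and the step from -93.0 to -87.3 points. A minimum coverage of 10 left no CpG of the upstream block, so that it gave neither value. It left 321 of the 426 CpGs of the window. Of these, 22 were called between monocytes and sperm, in place of 38. Low only in sperm were 3, in place of 9, with 0 of them in the LSM4 region. Shares of the genome are not given for the alternatives. Leaving out a library gave 8 to 12 called clusters in place of 13 between monocytes and sperm, with 8 without either monocyte library. Between monocytes and fibroblasts it gave 7 to 16 in place of 13, with 7 without monocyte replicate 2 and 8 without fibroblast replicate 1. Where this left 1 library in a cell type, it was assumed to vary like the others. Borders with all somatic libraries above 80% numbered 125 in place of 323, with LSM4 among them. A replicate block was also run, although the numbers do not pair the animals. With it, 35, 54 and 53 of the 426 CpGs and 9, 16 and 15 of the 32 clusters were called. These counts are for monocytes and sperm, fibroblasts and sperm, and monocytes and fibroblasts. There were 447 alternative values over 42 results, the selected block and border included. Of these, 404 were taken as unchanged. They kept their call or lack of a call, or a count within 1.5 times. For the differences of the 2 blocks, unchanged meant a value within the larger SD of the cell types compared. A call was lost in 33 and gained in 2, and 8 counts moved further. The difference between fibroblasts and sperm at the gene-start block, which was not called, changed sign without 1 library (-0.169 to 0.377 points). The causes of these changes were not tested, apart from the fewer CpGs at a coverage of 10. The upstream block had 6 to 13 reads per CpG, which limits the precision of its values.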

Other observations

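Within the unmethylated cluster from 4853325 to 4853938, with 34 CpGs, monocytes stood apart at 1 edge. As a whole, the cluster was at 10.3% and 10.4% in monocytes, above sperm (1.34% and 1.78%) and fibroblasts (2.44% and 1.85%). Monocytes were called higher than sperm (adjusted p = 0.0120, limma) and than fibroblasts (adjusted p = 0.0188). The CpGs at 4853329, 4853347 and 4853377, near its lower edge, were called high only in monocytes. At 4853329, the monocyte libraries were at 75.0% and 66.7%, above sperm at 8.33% and 0% and fibroblasts at 17.4% and 8.70%. These CpGs were singled out after their values were seen.

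Of the pairs of listed positions 1 base apart, there were 933658 in the genome and 131 in the window, and in no pair were both positions listed in the same library. Joined, the CpGs 5-500 in all 6 libraries rose from 1580644 to 1758357 in the genome, and from 426 to 457 in the window, 31 more. Counting only identical positions thus left out CpGs that every library covered.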
